A study of Homo sapiens with 6 samples.

Results

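The mRNAs of the translation factors, the proteins that load, move and release the ribosome, were followed through the 2 ribosome immunoprecipitations (IPs). Members were taken by symbol: every gene named EIF with a digit from 1 to 6 and not ending in P plus a number, together with EEF2, EEF1B2, EEF1D, EEF1G, EEF1E1, EEF2K, ETF1, GSPT1, PABPC1 and PABPC4. EEF1A1 and EEF1A2 are left out by this rule. It found 61 of the 16834 genes of the table. All 61 entered the tests, and all 61 were found in the GENCODE 44 annotation of GRCh38. Most of them are initiation or elongation factors, as their name says. Some carry the name with another main role, such as EIF4A3, the helicase of the exon junction complex, EEF1E1, a scaffold protein of the tRNA synthetase complex, and the EIF2AK kinases.

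The cells were HEK293-T Flp-In, an established human embryonic kidney line with a recombination site that holds a single copy of the ccTaggedRP construct. All 6 libraries came from asynchronous cells of this line. The construct expresses 2 tagged copies of RPL10a, a protein of the large ribosomal subunit, under the CAG promoter: Flag-RPL10a-hCdt, which carries a fragment of Cdt1 and is predicted to be stable from G1 into S, and HA-RPL10a-hGem, whose geminin fragment makes it predicted in S, G2 and M. The 3 Flag-IPs hold poly(A) RNA recovered with a Flag antibody, and the 3 HA-IPs hold poly(A) RNA recovered with an HA antibody. No untagged or input control was analysed here. The labels do not say whether replicates are separate cultures, so p-values measure only the spread between these libraries. An IP measures how much of an mRNA came down with tagged ribosomes, and fewer cells with that mRNA cannot be told apart from less of it per cell.

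Initiation begins when eIF2, with GTP and the initiator tRNA, joins the small subunit together with eIF1, eIF1A, eIF3 and eIF5. The eIF4 group brings the capped end of the mRNA, and the complex scans to a start codon, where eIF5B joins the large subunit. eEF1 and eEF2 then drive elongation, eRF1 (ETF1) and eRF3 (GSPT1) release the chain, and poly(A)-binding proteins link the tail to the cap. Phosphorylation of eIF2 alpha by the EIF2AK kinases and the control of eIF4E by mTOR are the main switches of the pathway, which dividing cells keep highly expressed.

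The libraries held 23174532 to 44134833 reads on the listed genes, and the translation factors together took 2.27 to 2.37% of the normalized counts in every library. Markers of the kidney embryonic and epithelial-like line were present, 9 of 9 in the table with a summed share of 0.146 to 0.164% and 1 called, higher in the Flag-IPs. Of 8 differentiated tubule markers 5 were in the table, at a summed share of 0.0121 to 0.0150% with 1 called higher in the HA-IPs and 2 lower, and UMOD, SLC12A3 and AQP2 were not. Heart muscle genes, which belong to another cell type, moved with the groups: 25 of 30 were in the table and all 25 were called higher in the Flag-IPs. Their summed share was 0.354 to 0.768% in the Flag-IPs and 0.00996 to 0.0721% in the HA-IPs, and their part in the results below was not tested. In both groups replicate 3 was the library nearest to the other group on this share.

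Of the 61 translation factors, 3 were called higher in the HA-IPs and 10 higher in the Flag-IPs. The 3 were EIF4A3, the release factor GSPT1 and the kinase EIF2AK4. The 10 were EIF1 and EIF1B, which guard start codon choice, the helicase EIF4A2, the scaffold EIF4G2, the cap-binding protein EIF4E2, the eIF3 subunits EIF3G, EIF3H, EIF3J and EIF3L, and EIF2S3B, a copy of the eIF2 gamma gene. A gene was called when limma (two-sided, Benjamini-Hochberg over all 16834 genes) gave it an adjusted p of 0.05 or less on log2(normalized counts + 1). Log2 fold changes are HA-IP minus Flag-IP, so that values above 0 lean to the HA-IPs. The share called higher in the HA-IPs was 4.92% of the members against 5.79% of all genes, and the share called higher in the Flag-IPs was 16.4% against 7.1%. In either direction 21.3% of the members and 12.9% of all genes were called. The share in the direction of the HA-IPs is near that of all genes. The median log2 fold change of the members was -0.064 and that of all genes was -0.0049, with 23 members above 0 and 38 below.

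The HA-IPs lay wholly above the Flag-IPs in 16 members (26.2%) and wholly below them in 20 (32.8%), while the groups overlapped in 25. Over all genes, 16.1% lay wholly above and 16.1% wholly below. The changes were small in most members. Apart from EIF2S3B, whose log2 fold change was -1.98, the log2 fold changes of the 61 ranged from -0.52 for EIF4A2 to 0.49 for EIF4A3. Some calls depend on single libraries: 5 of the 13 called members, EIF1, EIF2S3B, EIF4A2, EIF4A3 and GSPT1, were called with each of the 6 libraries left out in turn. Flag-IP replicate 3 was the Flag library nearest to the mean of the HA-IPs in 12 of the 13 called members, and in 75.2% of the 2171 genes called over the whole table. Without it, 11 members were called as higher in the HA-IPs and 18 as higher in the Flag-IPs, against 9.21% and 8.96% of all genes. Without replicate 3 of both groups the counts were 8 and 15, against 6.81% and 8.04%. Count models on the recovered reads gave 8 and 13 in DESeq2, against 6.2% and 7.31% of all genes, and 4 and 12 in edgeR, against 5.35% and 7.31%.

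**Figure D1:**
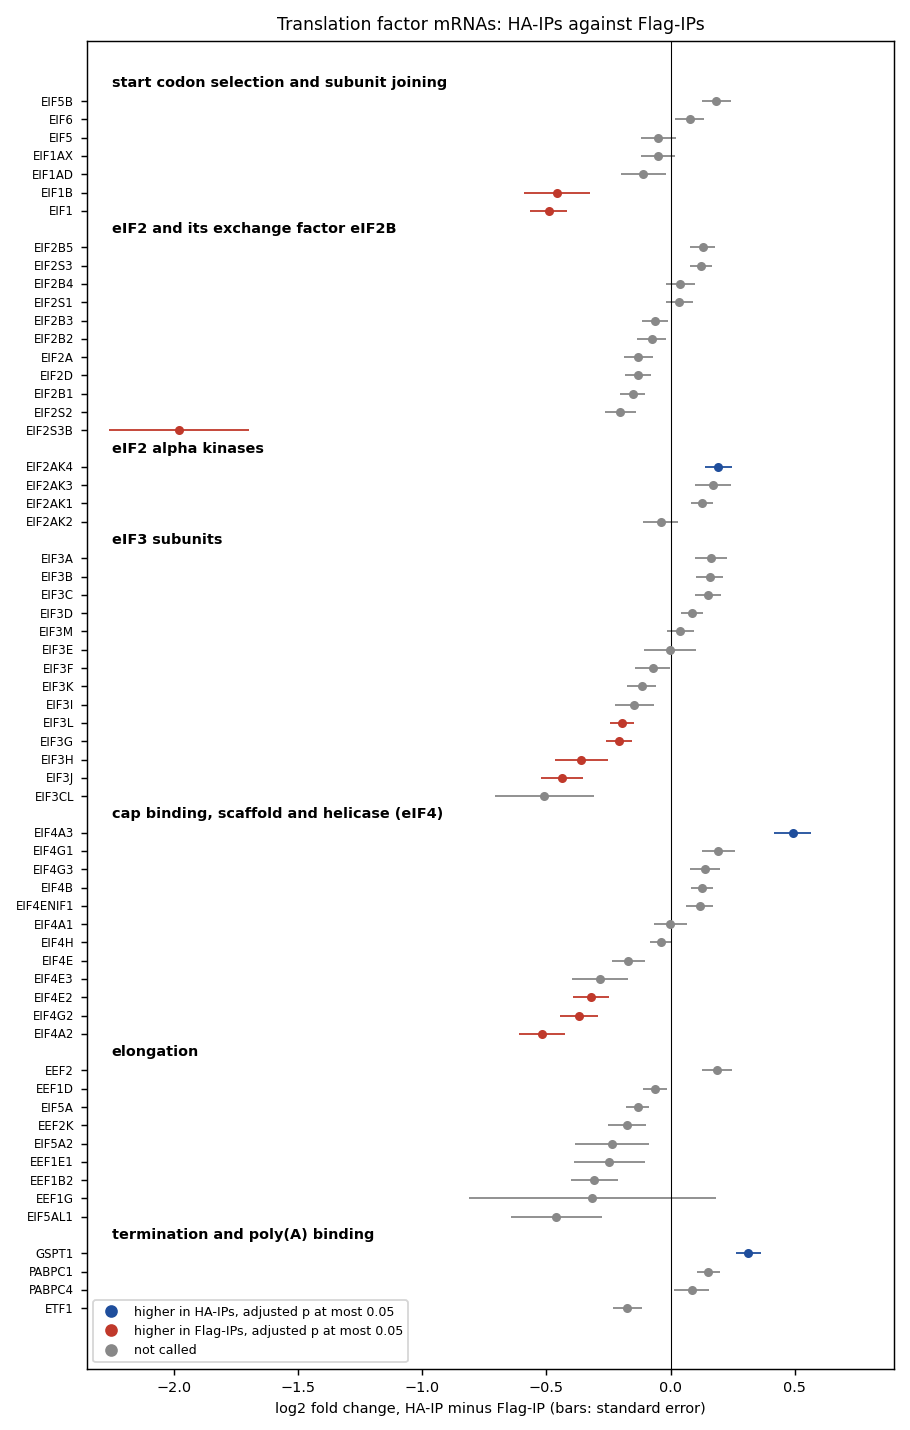
Log2 fold change of each of the 61 translation factors, HA-IPs minus Flag-IPs, with its standard error, grouped by role and sorted within a role. Blue points were called higher in the HA-IPs (3 genes), red points higher in the Flag-IPs (10 genes) and grey points were not called (48 genes); EIF2S3B lies far to the left of the others at -1.98.

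Start codon selection and subunit joining held 7 members, of which 2 were called, both higher in the Flag-IPs. These are the paralogs EIF1 and EIF1B, small proteins at the decoding site that hold the scanning complex open until the right codon is found. EIF1 (ENSG00000173812, chr17:41688885-41692668) stood at 8761, 7437 and 6855 normalized counts in replicates 1, 2 and 3 of the Flag-IPs, against 5345, 5379 and 5591 in those of the HA-IPs. EIF1B (ENSG00000114784, chr3:40309707-40312424) stood at 739, 535 and 488 in the Flag-IPs against 439, 403 and 420.1 in the HA-IPs. All 3 Flag-IPs were above all 3 HA-IPs in both genes, and Flag-IP replicate 1 was the highest. The mean of EIF1 was 7684 ± 977 in the Flag-IPs and 5438 ± 133 in the HA-IPs (SD, n = 3), a log2 fold change of -0.49 with a standard error of 0.076 (limma adjusted p = 0.00253). EIF1B differed by -0.46 with a standard error of 0.13 (limma adjusted p = 0.0424) and was called in 1 of the 6 fits with a library left out, that without Flag-IP replicate 3. Of its canonical transcript, 13.1% is shared with another annotated gene on its strand. EIF1 was the higher of the pair, with 2806 normalized counts per kb of transcript against 511 for EIF1B, and the ratio of EIF1 to EIF1B overlapped between the groups, 13.3 ± 1.23 in the Flag-IPs and 12.9 ± 0.663 in the HA-IPs (SD, n = 3).

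EIF1 is known for a start codon in a poor context, which its own protein makes the ribosome skip, so the start contexts are shown for this pair, for EIF4G2, whose coding region opens with a GTG, and for the eIF4A paralogs. They were read from GRCh38 at the coding starts of the GENCODE 44 canonical transcripts. Each line gives 6 bases before the start codon, the codon in capitals and 1 base after it.
EIF1, chr17:41689033-41689042, plus strand: tatcgtATGt
EIF1B, chr3:40309936-40309945, plus strand: tatcgcATGt
EIF4G2, chr11:10807292-10807301, minus strand: gccaaaGTGg
EIF4A1, chr17:7572836-7572845, plus strand: aggatcATGt
EIF4A2, chr3:186783605-186783614, plus strand: cggatcATGt
EIF4A3, chr17:80146958-80146967, minus strand: tgaatcATGg
A context is called strong here with A or G at 3 bases before the codon and G right after it, intermediate with only one of these, and weak with neither. Of the 61 members, 32 had a strong context, 26 an intermediate one and 3 a weak one. The shares were 52.5, 42.6 and 4.92%, against 46.1, 47.9 and 5.94% of 13777 protein-coding genes of the table. The 3 weak ones were EIF1, EIF1B and EIF3B, the first 2 called higher in the Flag-IPs and EIF3B not called, with a log2 fold change of 0.16. The strong group held 3 calls for the HA-IPs and 4 for the Flag-IPs, and the intermediate group held 4, all in the Flag-IPs. Calls among all genes of each context were not counted, and a link of the context with the calls was not tested.

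The other 5 members of this role were not called. EIF5B, the GTPase that joins the subunits, had 6804, 6871 and 7156 normalized counts in the Flag-IPs against 7315, 7946 and 8439 in the HA-IPs, with no overlap and a log2 fold change of 0.18 (limma adjusted p = 0.0546). EIF1AX, EIF5, EIF6 and EIF1AD overlapped between the groups, with log2 fold changes from -0.11 for EIF1AD to 0.076 for EIF6.

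**Figure D2:**
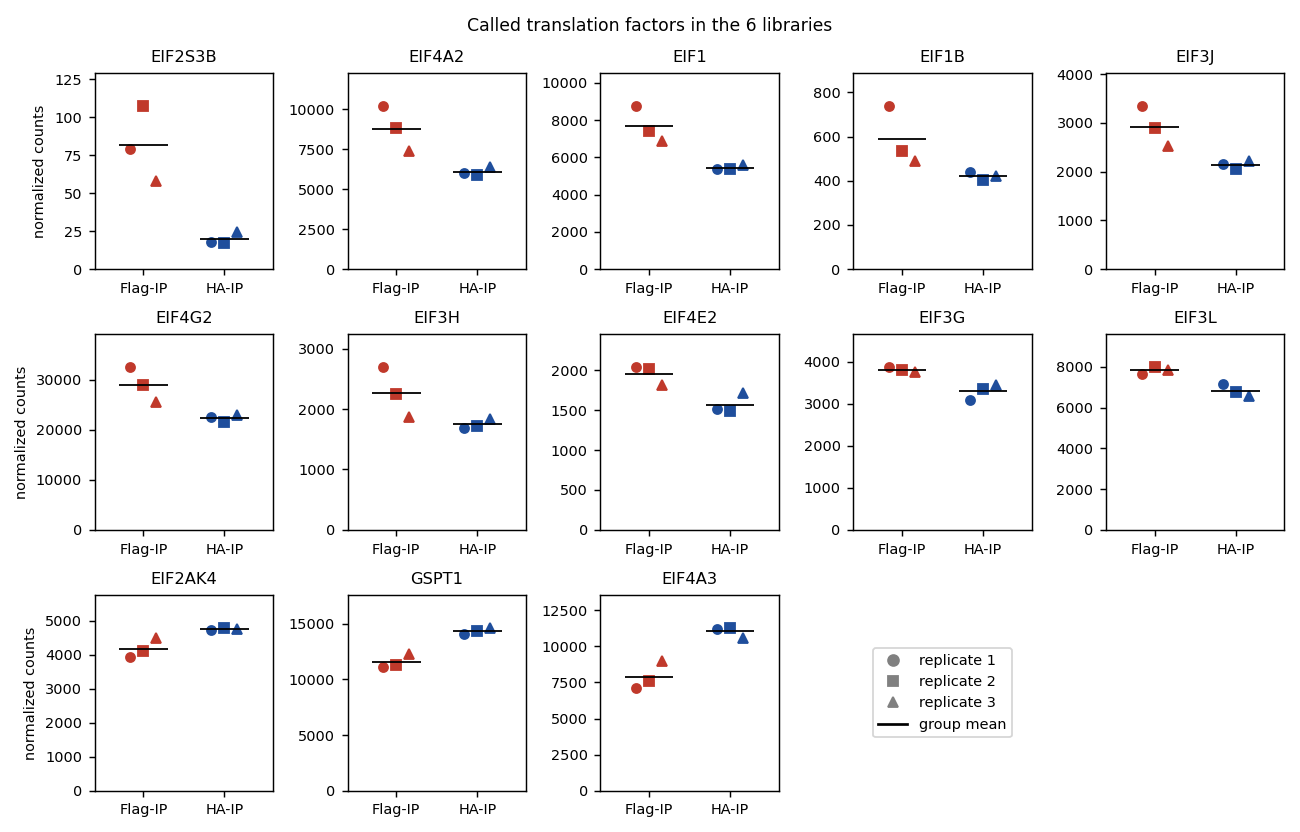
Normalized counts of the 13 called translation factors in each library, with circles, squares and triangles for replicates 1, 2 and 3 and a line for the group mean; each axis starts at 0. In every panel the 3 Flag-IPs (red) and the 3 HA-IPs (blue) do not overlap, and Flag-IP replicate 3 is the red point nearest to the blue mean in all panels but 1, that of EIF3L, where replicate 1 is nearest.

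eIF2, which carries the initiator tRNA, and its exchange factor eIF2B held 11 members with EIF2A and EIF2D, of which 1 was called, higher in the Flag-IPs. That gene was EIF2S3B, a copy on chromosome 12 of the X-linked EIF2S3, which encodes eIF2 gamma. EIF2S3B (ENSG00000180574, chr12:10505602-10523135) had 79.2, 107 and 58.1 normalized counts in the Flag-IPs against 17.6, 16.8 and 24.3 in the HA-IPs. Every Flag-IP was above every HA-IP, and the means were 81.6 ± 24.7 and 19.6 ± 4.07 (SD, n = 3). Its log2 fold change of -1.98 with a standard error of 0.28 corresponds to a value 3.94 times as high in the Flag-IPs (limma adjusted p = 0.00164), and ranged from -2.20 to -1.76 with a library left out.

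The parent gene EIF2S3 went the other way without being called. It had 9295, 9388 and 9478 normalized counts in the Flag-IPs against 10033, 10207 and 10395 in the HA-IPs, a log2 fold change of 0.12 (limma adjusted p = 0.0897). EIF2S3 was 117, 87.4 and 163 times as high as EIF2S3B in the Flag-IPs against 569, 606 and 429 times in the HA-IPs. Reads that match both copies can be split between them, so the level of EIF2S3B is uncertain. The pair has the same letters around the start codon, marked in capitals.
EIF2S3, chrX:24054963-24054972, plus strand: ggcaacATGg
EIF2S3B, chr12:10505897-10505906, plus strand: ggcaacATGg

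The remaining members of the eIF2 and eIF2B group had log2 fold changes from -0.20 to 0.13. EIF2S2, eIF2 beta, was the lowest of them, with 4189, 3708 and 3626 normalized counts in the Flag-IPs against 3297, 3205 and 3492 in the HA-IPs (limma adjusted p = 0.0549), while EIF2S1, eIF2 alpha, overlapped between the groups at 0.034. The 5 subunits of eIF2B did not move one way: EIF2B1 was at -0.15 and EIF2B5, the catalytic subunit, at 0.13, each with no overlap between groups and neither called.

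Of the 4 kinases that phosphorylate eIF2 alpha, 3 lay wholly higher in the HA-IPs and 1 of these was called. EIF2AK4, or GCN2, which senses uncharged tRNA, had 3927, 4117 and 4506 normalized counts in the Flag-IPs against 4743, 4800.4 and 4767 in the HA-IPs. The HA-IPs lay close together and above all Flag-IPs, with a log2 fold change of 0.19 and a standard error of 0.056 (limma adjusted p = 0.0435). The call of EIF2AK4 was kept in 1 of the 6 fits with a library left out, that without Flag-IP replicate 3, and was lost when libraries were scaled to the same total (limma adjusted p = 0.104). EIF2AK1, the heme-regulated kinase HRI, had 5082, 5023 and 5011 in the Flag-IPs against 5622, 5506 and 5359 in the HA-IPs, a log2 fold change of 0.12. EIF2AK3, or PERK, the kinase of the endoplasmic reticulum, had 771, 835 and 814 in the Flag-IPs against 982, 882 and 863 in the HA-IPs, a log2 fold change of 0.17. Neither was called. EIF2AK2, or PKR, which binds double-stranded RNA, overlapped between the groups, with 2280.4, 2293 and 2037 in the Flag-IPs, 1984, 2306 and 2138 in the HA-IPs and a log2 fold change of -0.041. Whether the kinases differ from each other in this comparison was not tested.

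eIF3, the large complex that binds the small subunit and the mRNA, held 14 members, of which 4 were called, all higher in the Flag-IPs. EIF3J, a loosely bound subunit near the decoding centre, had 3349, 2891 and 2518 normalized counts in the Flag-IPs against 2148, 2061 and 2216 in the HA-IPs. The Flag-IPs were spread over a wider range than the HA-IPs and all lay above them. The means were 2919.5 ± 416 and 2142 ± 77.9 (SD, n = 3), and the log2 fold change was -0.44 with a standard error of 0.086 (limma adjusted p = 0.00879), with a call in 5 of the 6 fits with a library left out and none without HA-IP replicate 2. EIF3H, a subunit of the core, had 2701, 2247 and 1861 in the Flag-IPs against 1689, 1727 and 1830.5 in the HA-IPs, so that replicate 3 of both groups lay close together. Its log2 fold change was -0.36 (limma adjusted p = 0.0458), called in 1 of the 6 such fits, that without Flag-IP replicate 3.

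The other called subunits had smaller fold changes. EIF3G, which takes part in scanning, had 3882, 3793 and 3751 normalized counts in the Flag-IPs against 3099, 3355 and 3445 in the HA-IPs, a log2 fold change of -0.21 (limma adjusted p = 0.0261). EIF3L had 7657, 8012 and 7841 in the Flag-IPs against 7183, 6763 and 6578 in the HA-IPs, a log2 fold change of -0.20 (limma adjusted p = 0.0238). In both genes the libraries of a group lay close together, and each was called in 3 of the 6 fits with a library left out, among them that without Flag-IP replicate 3. Of the canonical transcript of EIF3L, 58.5% is shared with another annotated gene on its strand, so its reads can be split.

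EIF3B, EIF3A and EIF3C had log2 fold changes above 0 and were not called. EIF3B, a scaffold of the complex and the member of the group with the highest level per kb (10319), had 29098, 29305 and 32305 normalized counts in the Flag-IPs against 34491, 33175 and 33319.9 in the HA-IPs, a log2 fold change of 0.16 (limma adjusted p = 0.0797). EIF3A overlapped between the groups at 0.16, and EIF3C lay wholly higher in the HA-IPs at 0.15 with 1665, 1689.7 and 1710.1 in the Flag-IPs against 1914, 1878 and 1828 in the HA-IPs. EIF3CL, the near-identical copy of EIF3C, had 89.6, 94.6 and 82.1 in the Flag-IPs against 69.9, 70.3 and 48.5 in the HA-IPs, a log2 fold change of -0.51 that was not called (limma adjusted p = 0.121). It had the largest fold change of the eIF3 genes, and its reads cannot be kept apart from those of EIF3C with certainty. EIF3B over EIF3J was 10.6 ± 2.10 in the Flag-IPs and 15.7 ± 0.603 in the HA-IPs (SD, n = 3), as the opposite directions of these genes imply.

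The eIF4 group, which binds the cap, unwinds the leader and scaffolds the complex, held 12 members, with 1 call for the HA-IPs and 3 for the Flag-IPs. Its calls ran in opposite directions among close relatives. EIF4A2 (ENSG00000156976, chr3:186783205-186789897), a DEAD-box helicase of the cap complex, had 10222, 8811 and 7374 normalized counts in the Flag-IPs against 6016, 5875 and 6382 in the HA-IPs. EIF4A3 (ENSG00000141543, chr17:80134369-80147151), its relative in the exon junction complex, had 7085, 7629.5 and 8972 in the Flag-IPs against 11222, 11299 and 10610.1 in the HA-IPs. The groups did not overlap in either gene, and in both the Flag-IPs were more spread than the HA-IPs, with replicate 3 nearest to them. The log2 fold change of EIF4A2 was -0.52 with a standard error of 0.093 (limma adjusted p = 0.00562), and that of EIF4A3 was 0.49 with a standard error of 0.075 (limma adjusted p = 0.00239). The ratio of EIF4A3 to EIF4A2 was 0.693, 0.866 and 1.22 in the Flag-IPs against 1.87, 1.92 and 1.66 in the HA-IPs, which restates the opposite directions of the 2 genes. EIF4A1, the main helicase of the cap complex in dividing cells, had 1500.0, 1328 and 1325 in the Flag-IPs against 1385, 1339 and 1420.3 in the HA-IPs, with overlap and a log2 fold change of -0.0011. All of its canonical transcript is shared with annotated readthrough genes on its strand, so its reads can be split.

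The eIF4G scaffolds did not all lean one way. EIF4G2, also called DAP5, which lacks the cap-binding part of its relatives, had 32548, 28868 and 25493 normalized counts in the Flag-IPs against 22619, 21484 and 22881 in the HA-IPs. All Flag-IPs were above all HA-IPs, and its log2 fold change was -0.37 with a standard error of 0.076 (limma adjusted p = 0.0103), called in 3 of the 6 fits with a library left out. EIF4G1, the main scaffold and the highest of the eIF4 group per kb (19943), had 93269.9, 98809 and 110277 in the Flag-IPs against 110996, 118212 and 115193 in the HA-IPs, a log2 fold change of 0.19 that was not called (limma adjusted p = 0.086). EIF4G3 overlapped between the groups, with 11301, 12104 and 13239 in the Flag-IPs against 12963, 13309 and 13971 in the HA-IPs and a log2 fold change of 0.14. The ratio of EIF4G1 to EIF4G2 was 2.87, 3.42 and 4.33 in the Flag-IPs against 4.91, 5.50 and 5.03 in the HA-IPs. That it does not overlap follows from the genes, which lay wholly apart in opposite directions.

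**Figure D3:**
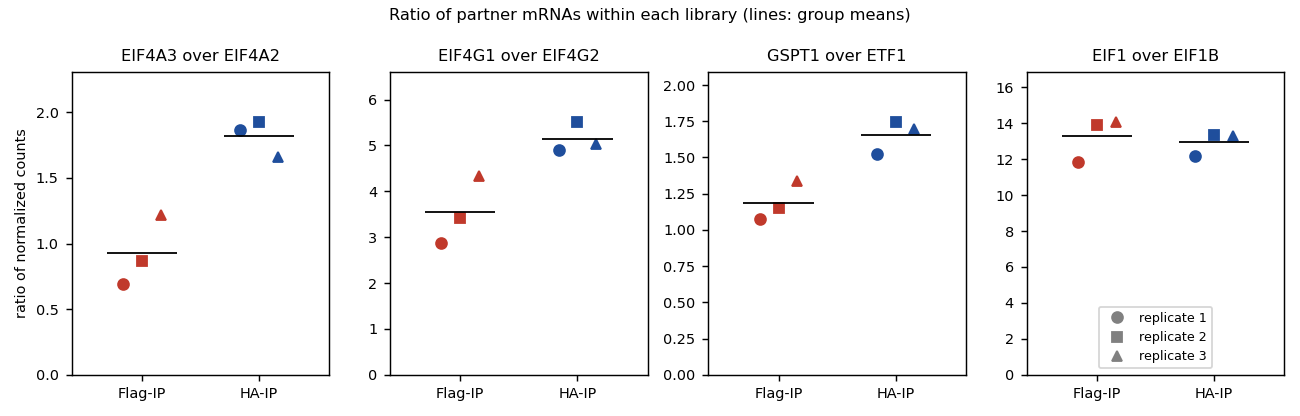
Ratio of the normalized counts of 2 partner genes within each library, with circles, squares and triangles for replicates 1, 2 and 3, a line for the group mean and axes that start at 0. EIF4A3 over EIF4A2, EIF4G1 over EIF4G2 and GSPT1 over ETF1 are higher in all 3 HA-IPs than in any Flag-IP. In these pairs the HA-IPs lay wholly above for the upper gene and wholly below for the lower gene. Their separation was therefore fixed in advance and is no further result. EIF1 over EIF1B overlaps (means 13.3 and 12.9).

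Of the cap-binding proteins EIF4E2 was called and the other two were not. EIF4E2, or 4EHP, which binds the cap without recruiting eIF4G, had 2043, 2019 and 1809 normalized counts in the Flag-IPs against 1508, 1487 and 1709 in the HA-IPs, a log2 fold change of -0.32 (limma adjusted p = 0.0142). EIF4E, the canonical cap-binding protein, had 1404, 1364 and 1232 in the Flag-IPs against 1202, 1130.0 and 1219.6 in the HA-IPs, a log2 fold change of -0.17 (limma adjusted p = 0.123), with no overlap. EIF4E3 had 406, 449.8 and 347 in the Flag-IPs against 319.7, 303 and 362 in the HA-IPs, with overlap and a log2 fold change of -0.28. All of these 3 had values below 0 on the log2 scale, and a difference between them was not tested. EIF4B and EIF4ENIF1, a helicase cofactor and an eIF4E transporter, lay wholly higher in the HA-IPs at 0.13 and 0.12, and EIF4H, the other cofactor, wholly lower at -0.038, none of them called. Genes annotated on the other strand overlap 10.7% of the exonic bases of EIF3L, 10.4% of those of EIF4E2, 7.39% of those of EIF4A2 and 5.98% of those of EIF3J, and without strand in the counting their reads cannot be told apart.

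None of the 9 elongation genes was called in limma. An unadjusted limma p under 0.05 was found in 5 of the 9, and in 4587 of all 16834 genes. In edgeR, EEF2 was called in the HA-IPs and EEF1B2 in the Flag-IPs, and DESeq2 called the same 2 genes. With the same total per library EEF2 was not called at 0.13 (limma adjusted p = 0.0806), while EEF1B2 was called at -0.36 (limma adjusted p = 0.0349). Quantile normalization put EEF2 at 0. It does so for any gene with the same rank in every library, so this value says nothing about EEF2. With trends in GC content and transcript length removed, EEF1B2 was at -0.098 and not called (limma adjusted p = 0.308). EEF2, the translocase, was the highest translation factor in these libraries, at 56521 normalized counts per kb and 0.525 to 0.612% of all normalized counts. It had 157861, 165808 and 177667 normalized counts in the Flag-IPs against 189403, 192896 and 187321 in the HA-IPs. All HA-IPs were above all Flag-IPs, and the log2 fold change was 0.19 with a standard error of 0.061 (limma adjusted p = 0.0688). EIF5A, which helps the ribosome past stalling peptides and carries hypusine, had 28277, 29689.8 and 28677 in the Flag-IPs against 25473, 27010.1 and 26512 in the HA-IPs, wholly lower in the HA-IPs, with a log2 fold change of -0.13 (limma adjusted p = 0.0897). The other 7 lay between -0.46 and -0.064, all below 0, though EEF1G was at 0.025 with quantile normalization.

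The lower elongation genes were less certain. EIF5A2, the paralog of EIF5A, had 227, 178 and 160.5 normalized counts in the Flag-IPs against 152, 152 and 172 in the HA-IPs, and EIF5AL1, a retrocopy that can share reads with EIF5A, had 231, 190.3 and 156 in the Flag-IPs against 138, 112 and 169.8 in the HA-IPs. The groups overlapped in both. EEF1B2, the exchange factor of eEF1A, had 4084, 3391 and 3090.0 in the Flag-IPs against 2561, 2856 and 3089 in the HA-IPs, a log2 fold change of -0.31 (limma adjusted p = 0.0565). EEF1G, listed at only 18.2, 10.6 and 11.1 in the Flag-IPs against 4.94, 10.9 and 18.7 in the HA-IPs, shares 99.5% of its canonical transcript with exons of TUT1 on the same strand, so its value says little about this gene.

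Termination and poly(A) binding held 4 members, of which 1 was called, higher in the HA-IPs. GSPT1 (ENSG00000103342, chr16:11868128-11916082), the GTPase eRF3a, had 11131, 11302 and 12314 normalized counts in the Flag-IPs against 14064, 14378 and 14638 in the HA-IPs. The means were 11582 ± 639 and 14359.9 ± 287 (SD, n = 3), with no overlap, and the log2 fold change was 0.31 with a standard error of 0.051 (limma adjusted p = 0.00334). ETF1, or eRF1, its partner that reads the stop codon, had 10359, 9847 and 9227 in the Flag-IPs against 9212, 8254 and 8615 in the HA-IPs, wholly lower in the HA-IPs, with a log2 fold change of -0.17 (limma adjusted p = 0.0707). The ratio of GSPT1 to ETF1 was 1.07, 1.15 and 1.33 in the Flag-IPs against 1.53, 1.74 and 1.70 in the HA-IPs, a separation fixed by the opposite directions of both genes. PABPC1, the main cytoplasmic poly(A)-binding protein, had 38172, 37117 and 39066 in the Flag-IPs against 41751, 42699.9 and 42509 in the HA-IPs, a log2 fold change of 0.15 (limma adjusted p = 0.0557). PABPC4 overlapped between the groups, with 13307, 14620.0 and 16383 in the Flag-IPs against 14716, 16182 and 15931 in the HA-IPs.

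**Figure D4:**
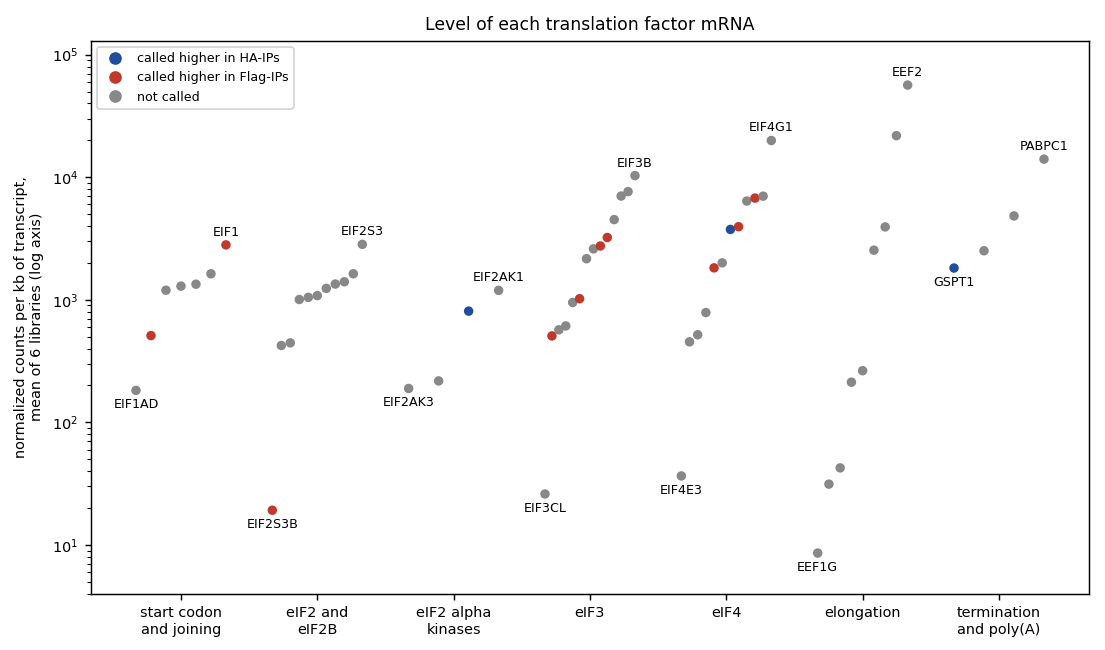
Mean normalized counts per kb of canonical transcript over the 6 libraries for each of the 61 translation factors (log axis), by role, with the lowest and highest gene of each role named. Levels run from 8.58 for EEF1G to 56521 for EEF2, and the called genes (blue and red) lie within this range and are neither all low nor all high.

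Per kb of transcript, the levels of the translation factors differed far more between genes than between the IPs. EEF2 was followed by EIF5A at 21841 normalized counts per kb, EIF4G1 at 19943, PABPC1 at 14058 and EIF3B at 10319. At the other end stood EEF1G at 8.58, EIF2S3B at 19.2, EIF3CL at 26.0, EIF5A2 at 31.3 and EIF4E3 at 36.5. These lowest values include the copies and shared genes named above. Genes of one complex did not share a level either, since eIF3 ran from 26.0 to 10319 and eIF2 with eIF2B from 19.2 to 2835. Both low ends are copies, EIF3CL and EIF2S3B, whose reads can be split with their parent genes. Without these copies the ranges began at 507 (EIF3H) and 424 (EIF2B2).

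Many mRNAs of the translation apparatus begin with a C and a run of pyrimidines, the 5′ terminal oligopyrimidine (TOP) motif, through which mTOR and LARP1 control them. The start sites of RefSeq (GRCh38.p14) were searched on the strand of the gene for a C followed by 4 or more C or T from the annotated first base. Such a start was found in 11 of the 50 members with a window (22%) and in 591 of 11144 protein-coding genes (5.3%). A run that may start up to 5 bases from the annotated first base was found in 18 of the 50 members (36%) and in 2529 of the 11144 genes (22.7%). A match is a description of these letters, since the start used in these cells was not measured. The starts of EEF2, EIF3F, EIF4A2 and EIF4B and of the EIF2S3 pair are shown as examples with high level, a long run, a call or a copy, with 10 bases upstream in lower case and the first 20 bases from the annotated start in capitals.
EEF2, chr19:3985444-3985473, minus strand: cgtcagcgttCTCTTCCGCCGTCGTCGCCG
EIF3F, chr11:7987327-7987356, plus strand: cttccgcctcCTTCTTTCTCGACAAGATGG
EIF4A2, chr3:186783567-186783596, plus strand: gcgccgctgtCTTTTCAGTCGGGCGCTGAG
EIF4B, chr12:53006446-53006475, plus strand: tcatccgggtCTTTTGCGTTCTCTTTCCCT
EIF2S3, chrX:24054946-24054975, plus strand: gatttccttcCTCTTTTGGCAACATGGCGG
EIF2S3B, chr12:10505880-10505909, plus strand: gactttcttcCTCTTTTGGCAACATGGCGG
Of the 11 genes with the run at the first base, 2 were called, EIF4A2 and EIF2S3B, both higher in the Flag-IPs, with a median log2 fold change of -0.072. The 39 members without it there had 3 calls in the HA-IPs, 5 in the Flag-IPs and a median of -0.063. Of the 18 with a run up to 5 bases away, 6 were called, all higher in the Flag-IPs: EIF1, EIF3J, EIF4E2 and EIF4G2 besides the 2 above. Their median was -0.13. The 32 members with a window and no such run had 3 calls in the HA-IPs, 1 in the Flag-IPs and a median of -0.045. Calls among all genes with such a run were not counted, and a link of the run with the calls was not tested.

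Fold changes of the translation factors went with transcript length. Of the 15 members with a transcript under 2000 bases, 4 were called, all higher in the Flag-IPs, with a median log2 fold change of -0.15. Of the 18 over 4000 bases, 2 were called, both higher in the HA-IPs, with a median of 0.037. Among all genes the short and the long ones showed the same lean. Of 5174 genes under 2000 bases, 73 were called higher in the HA-IPs and 613 lower, with a median of -0.11. Of 5837 genes over 4000 bases, 570 were called higher in the HA-IPs and 256 lower, with a median of 0.043. Between these lengths the members did not go with all genes. Of 28 such members 1 was called higher in the HA-IPs and 6 lower, with a median of -0.12. Of 5672 such genes 329 were called higher and 321 lower, with a median of 0.0034. Spearman's rho of fold change with length was 0.36 across the 61 members and 0.24 across 16683 genes, where all points share the same 6 libraries and genes are not independent replicates.

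After the trends with GC and length were taken out of each library, 10 members were called higher in the HA-IPs and 10 higher in the Flag-IPs, against 8.15% and 7.39% of all genes. EIF1B, EIF3G and EIF4E2 lost their call, with log2 fold changes of -0.28, -0.041 and -0.15. EIF4A3, GSPT1 and EIF2AK4 kept theirs and were joined in the HA-IPs by EEF2, EIF3B, EIF3C, EIF3D, EIF4G1, EIF6 and PABPC1. EEF2 then had a log2 fold change of 0.20 (limma adjusted p = 0.0161) and EIF6, the factor that keeps free large subunits apart from small ones, one of 0.25 (limma adjusted p = 0.00867). EEF2K, the kinase that inhibits eEF2, was among the 3 that joined in the Flag-IPs, at -0.23 (limma adjusted p = 0.0403), together with EIF2S2 and ETF1. EIF1, EIF4A2 and EIF3J kept their calls at -0.46, -0.47 and -0.41.

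**Figure D5:**
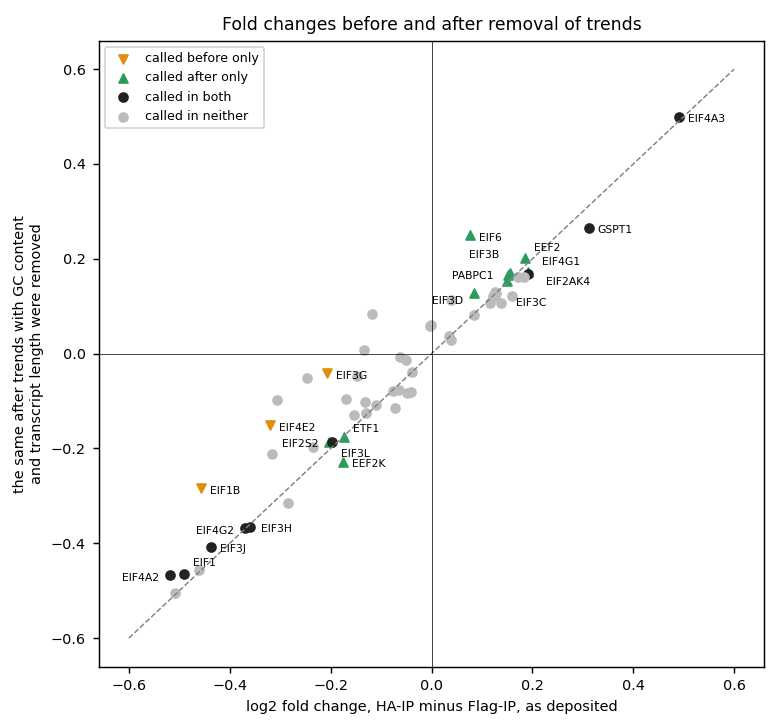
Log2 fold change of 60 translation factors (EIF2S3B, at -1.98 before and -1.97 after, lies outside the axes) as deposited on the horizontal axis and after removal of trends with GC content and transcript length on the vertical axis; the dashed line marks equal values. Symbols show in which of the 2 fits a gene was called: EIF1B, EIF3G and EIF4E2 before only, 10 genes such as EEF2 and EIF6 after only, and EIF4A3, GSPT1, EIF1 and EIF4A2 among those in both.

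Regulators of these factors were read from a list of 47 genes, all of them in the table: eIF4E-binding proteins, the mTOR, S6 kinase and MNK genes, partners of the eIF2 kinases and phosphatases, poly(A)-binding partners, the enzymes of hypusine and diphthamide, and rescue and recycling factors. Of the 47, 3 (6.38%) were called higher in the HA-IPs and 5 (10.6%) higher in the Flag-IPs, against 5.79% and 7.1% of all genes, with a median log2 fold change of -0.036. The first of these shares is near that of all genes. PAIP2, an inhibitor of PABPC1, had the largest fold change of those called, with 3136, 2464 and 2182 normalized counts in the Flag-IPs against 1579.9, 1606 and 1731 in the HA-IPs, a log2 fold change of -0.65 and a standard error of 0.11 (limma adjusted p = 0.00345). The groups did not overlap, and the call held with each library left out. PPP1CB, a catalytic subunit of the phosphatase that acts on eIF2 alpha among many targets, was at -0.42, MKNK2, a kinase of eIF4E, at -0.25, EIF4EBP1, which sequesters eIF4E, at -0.24, and DPH2, of the diphthamide pathway that modifies eEF2, at -0.24, all called higher in the Flag-IPs.

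GCN1, GSPT2 and CYFIP1 were the regulators called higher in the HA-IPs. GCN1, the activator of GCN2 (EIF2AK4), had 34569, 35178 and 38464 normalized counts in the Flag-IPs against 41109.5, 41977 and 41068 in the HA-IPs, a log2 fold change of 0.20 (limma adjusted p = 0.0307). GSPT2, the paralog of GSPT1 known as eRF3b, had 709, 735 and 789 in the Flag-IPs against 913, 873 and 946 in the HA-IPs, a log2 fold change of 0.29 (limma adjusted p = 0.0201). CYFIP1, which binds eIF4E, was at 0.22. The groups did not overlap in these 3 genes. The call of GCN1 was kept in 1 of the 6 fits with a library left out, those of GSPT2 and CYFIP1 in 2. Among the regulators called higher in the Flag-IPs, PPP1CB and DPH2 kept their call in 3 of these fits, MKNK2 in 2 and EIF4EBP1 in 1. The call of EIF4EBP1 was lost after the same removal of trends (-0.055, limma adjusted p = 0.655), and of the 12 genes of the mTOR, MNK and S6 kinase list MKNK2 was the one called.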

How the data were processed

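Poly(A) RNA from 3 Flag-IPs and 3 HA-IPs was sequenced in paired reads of 150 bp. Per the study and the submitters' processing notes, reads were trimmed (Trimmomatic 0.36), mapped to GRCh38 (STAR 2.5.2b) and counted per gene (featureCounts of Subread 1.5.2, strand setting not given in the sources used here). The authors dropped low genes, and every gene listed reaches 10 reads in at least 3 libraries. The deposited values are a normalized signal: the authors scaled each library's read counts by its DESeq2 size factor. Their own fold changes and adjusted p-values were not used. Every value was a whole multiple of 1 read (100% within 0.01 of a read), so reads were recovered.

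HA-IPs were compared with Flag-IPs over all 16834 genes in limma 3.58.1 (R 4.3.3; trend of the variance on the mean, two-sided, Benjamini-Hochberg) on log2(normalized counts + 1), a scale that understates changes of low genes. On the recovered reads edgeR 4.0.16 called 901 genes higher in the HA-IPs and 1230 lower, and DESeq2 1.42.0 1044 and 1230. Lengths, GC content, coordinates and start codons came from GENCODE 44 (99.1% of identifiers matched), start sites from RefSeq. Trends were removed by robust regression on natural splines (5 degrees of freedom). Alternatives were pseudocounts of 0.1 and 10, a mean of at least 50, other scalings, the replicate block, each library left out, replicate 3 left out of both groups, and an adjusted p of at most 0.01. Members and lists were chosen with earlier results of these data known. Genes given with values in every library are those called, the highest and the most changed of each role, and paralog sets; others were added after their values were seen. The labels do not say whether equal replicate numbers mark a pair of samples, and the main fit has no replicate block.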

Additional observations from a re-analysis of the deposited data

How the results depend on the processing

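Pseudocounts of 0.1 and 10, TMM scaling and a mean of at least 50 normalized counts left the count in the HA-IPs at 3 and that in the Flag-IPs at 9 or 10. The count in the HA-IPs was 8 with DESeq2, 10 with GC content and transcript length removed (also with the replicate block), 8 without replicate 3 of both groups, 2 to 11 with a library left out, and 0 in limma without the trend, where 10 members had an unadjusted p under 0.05 in that direction and edgeR called 4. The count in the Flag-IPs was 16 with the same total per library, 4 at the stricter adjusted p of 0.01, 1 in limma without the trend (EIF2S3B) and 3 to 18 with a library left out. It was 18 without Flag-IP replicate 3, 4 without Flag-IP replicate 2, 5 without HA-IP replicate 1 and 3 without HA-IP replicate 2. The cause was not tested. Shares of all genes were given above for DESeq2, edgeR and the removal of trends without the replicate block. They were also given for the fits without Flag-IP replicate 3 and without replicate 3 of both groups. For the other alternatives such shares were not counted, so their counts cannot be set against all genes. The median log2 fold change of the members, -0.064, was -0.12 with the same total. That scaling also moved the median of all genes, from -0.0049 to -0.057. Without replicate 3 of both groups the median was -0.096 in the members and -0.0048 in all genes. With a library left out, that of the members was -0.097 to -0.057. Correlations of same-numbered deviations from the group means were -0.16, 0.035 and -0.32, and no library correlated best with its own number. With 3 libraries per group this cannot exclude a pairing. With the replicate block the counts were 3 and 8. In the HA-IPs EIF2AK4 lost its call and EIF5B gained one, and in the Flag-IPs EIF3G and EIF3H lost theirs.

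No member or regulator called in limma changed sign. Signs turned among members that were not called. The largest turned values were 0.15 for EIF3E and 0.14 for EEF1G, each with a library left out. With quantile normalization EEF1G was at 0.025, EIF2S1 at -0.033, EIF3D at -0.013, EIF3M at -0.016, EIF4A1 at 0.0099 and PABPC4 at -0.0084. With the same total, EIF2B4 was at -0.015, EIF2S1 at -0.018 and EIF3M at -0.014. With GC content and transcript length removed, with or without the replicate block, EIF3E was at 0.059, EIF3K at 0.083, EIF4A1 at 0.061 and EIF5A at 0.0082, and without replicate 3 of both groups EIF2S1 was at -0.0046. With a library left out, EEF1G ran from -0.73 to 0.14, EIF1AX from -0.094 to 0.033, EIF2AK2 from -0.097 to 0.013, EIF3E from -0.10 to 0.15, EIF4A1 from -0.031 to 0.058 and EIF5 from -0.11 to 0.024. Of 1310 alternatives over 69 genes, 1116 kept direction and side of the threshold, 98 lost and 70 gained a call, and 26 turned sign. The lowest counts belonged to EEF1G, at 4.94 to 18.7 normalized counts per library, where the standard error of the log2 fold change was 0.50.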

Other observations

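Processed copies of the translation factor genes were also counted. Of the 6 in the table that carry a member's symbol with a P and a number, 2 were called higher in the Flag-IPs and 4 were not called. EEF1B2P3, a copy of EEF1B2, had 319, 202 and 158 normalized counts in the Flag-IPs against 9.17, 13.9 and 38.6 in the HA-IPs (limma adjusted p = 0.000583). EIF4A2P4, a copy of EIF4A2, had 58.4, 45.7 and 11.1 in the Flag-IPs and at most 1 read in each HA-IP (limma adjusted p = 0.00232), so no fold is given. In both the Flag-IPs lay above the HA-IPs, as in EIF4A2 and, without a call, EEF1B2. The 4 others, EIF3EP1, EIF3FP3, EIF4A1P10 and EIF4BP3, overlapped between the groups.

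Many translation factor genes hold small nucleolar RNA genes, which guide modification of ribosomal RNA, inside them. A snoRNA gene lay inside 10 of the 61 members (16.4%) and inside 241 of 13859 protein-coding genes of the table (1.74%). The 10 were EEF1B2, EEF2, EIF1AX, EIF3A, EIF4A1, EIF4A2, EIF4G1, EIF4G2, EIF5 and PABPC4, with 5 snoRNA genes in EIF4A2. Of these hosts 2 were called, EIF4A2 and EIF4G2, both higher in the Flag-IPs, with a median log2 fold change of -0.025. The other 51 members held 3 calls for the HA-IPs and 8 for the Flag-IPs, with a median of -0.077. In either direction 20% of the hosts and 21.6% of the other members were called, against 12.9% of all genes. Calls among the 241 host genes of the table were not counted, and a link of the snoRNA genes with the calls was not tested.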
